A study of Mus musculus with 6 samples.

Results

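The Cyp2f2 and Lum fibroblasts were the cells of the dermal fibroblast gate that carried at least 2 unique molecular identifiers (UMIs, each standing for 1 captured transcript) of Cyp2f2 and Lum together. The gate asked for at least 20 UMIs per 10000 of Col1a1, Col1a2, Col3a1 and Dcn summed, for 0 UMIs of Ptprc, for fewer than 10 per 10000 of Krt5 and Krt14 and for fewer than 20 per 10000 of Acta2 and Tagln. Cells with 3 or more UMIs per 10000 of Coch, Dkk2 and Crabp1, or of Plac8 and Cxcl13, were set aside as other fibroblasts. These cells were therefore selected on measured levels of 16 genes, and the levels of those genes are given as descriptions only. The rule found 5773 member cells among 20027 gated fibroblasts and 50850 kept cells of all types. The other gated fibroblasts were 5577 Coch, Dkk2 and Crabp1 cells, 7183 Plac8 and Cxcl13 cells and 1494 cells with fewer than 2 UMIs of Cyp2f2 and Lum that passed both of these limits.

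The cells came from dorsal skin of female C57BL/6J mice 8 to 10 weeks old, in 6 droplet libraries of 3 groups with 2 libraries each. Sham mice received no drug, IMQ mice received 62.5 mg of 5% imiquimod cream on the skin daily for 4 days, and IMQ+SHP099 mice received the same cream and 10 mg/kg of SHP099 hydrochloride by gavage daily for 4 days that the labels call additional. Skin was taken 1 day after the last treatment. Imiquimod activates the endosomal receptor TLR7 and is used as a model of psoriasis, and SHP099 is an allosteric inhibitor of the phosphatase SHP2, which is encoded by Ptpn11. Each library pooled the skin of several mice, so the p-values below measure the spread between 2 pools of each group. SHP099 was given with imiquimod only, so its action on untreated skin was not analysed here.

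Dermal fibroblasts build and remodel the collagen and proteoglycan matrix of the skin and answer inflammatory cytokines by releasing chemokines and acute-phase proteins. Lum encodes lumican, a small leucine-rich proteoglycan that binds collagen fibrils, and Cyp2f2 encodes a cytochrome P450 that oxidises foreign aromatic compounds. Mfap4 encodes a protein of elastic microfibrils, and Cilp encodes a secreted matrix protein first described in cartilage. Cyp2f2 lies on chromosome 7 at 27119909 to 27133660 and Lum on chromosome 10 at 97565128 to 97572703 of GRCm38.

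The total in each library ranged from 53913865 to 188283327 UMIs over 7567 to 10746 barcodes, and the sum over the member cells ranged from 2195984 UMIs in Sham replicate 1 to 16929960 in Sham replicate 2. Median depth per member cell lay between 5049 and 9753 UMIs. Pairs of libraries shared 0 to 2 member barcodes. Levels over summed cells are given in CPM (UMIs of a gene per 1000000 UMIs), either unscaled or scaled between libraries by edgeR. Among 12 fibroblast genes outside the gate, the summed level in the members was 13101 to 17059 unscaled CPM, or 183% to 1154% of the level in all kept cells. Sham replicate 1 stood apart through keratinocyte transcripts. The 10 keratinocyte markers, which include Krt10 and Krt15, summed to 9373 unscaled CPM in its members, against 888 in Sham replicate 2 and 118 to 459 in the other 4 libraries. None of these 10 markers was at 0 in all 6 libraries.

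Cyp2f2 and Lum chose the members, so their levels describe the rule and do not check the label. In Sham the members held 979 and 1203 unscaled CPM of Cyp2f2, where the Coch, Dkk2 and Crabp1 fibroblasts held 362 and 489 and the Plac8 and Cxcl13 fibroblasts held 87.4 and 76.0. In IMQ the members held 214 and 118 and the Coch, Dkk2 and Crabp1 fibroblasts 199 and 177, so the populations overlapped in that gene. Lum was 3485 and 4073 unscaled CPM in the Sham members and 2268 and 2352 in the IMQ members.

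Mfap4 and Cilp were no part of the rule, and they checked the label only in part. Mfap4 did not single out the members, since in Sham it was 1184 and 826 unscaled CPM in them and 2079 and 1131 in the Coch, Dkk2 and Crabp1 fibroblasts. Cilp was 1944 and 1281 in the Sham members, 1213 and 2915 in the IMQ members and 699.8 and 1808 in the IMQ+SHP099 members. In each of the 6 libraries that summed level was above the one in the Coch, Dkk2 and Crabp1 and the Plac8 and Cxcl13 fibroblasts of the same library. The share of cells with at least 1 UMI of Cilp did not follow this order in 3 libraries. It was 57.6% in the members and 58.1% in the Coch, Dkk2 and Crabp1 fibroblasts of IMQ replicate 1, and 65.2% and 66.7% in those of IMQ+SHP099 replicate 2. In IMQ+SHP099 replicate 1 it was 54.2% in the members and 55.5% in the Plac8 and Cxcl13 fibroblasts. Cells with Ptprc outside the gate held Cilp in 0.394% to 3.39% of cases. The name therefore describes the rule, and both Mfap4 and Cilp were shared with other populations.

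**Figure D1:**
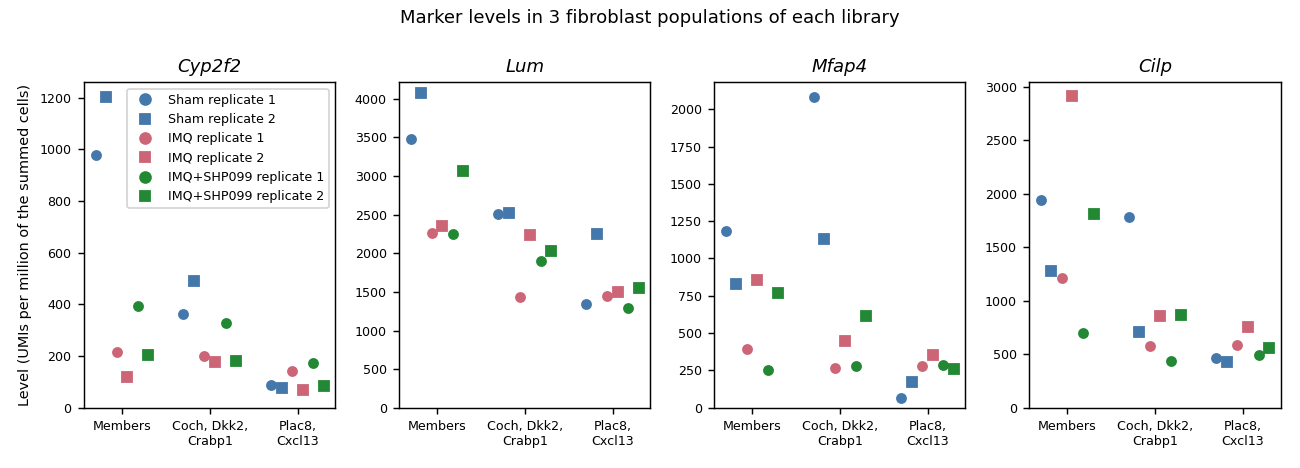
Level of Cyp2f2, Lum, Mfap4 and Cilp (y axis, unscaled CPM of the summed cells) in the members, the Coch, Dkk2 and Crabp1 fibroblasts and the Plac8 and Cxcl13 fibroblasts, with 1 point for each library. Cyp2f2 in the members is highest in the 2 Sham libraries, at 979 and 1203, while Mfap4 in Sham is highest in the Coch, Dkk2 and Crabp1 fibroblasts, at 2079 and 1131.

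Nearly every member carried Lum, while Cyp2f2 varied. At least 1 UMI of Lum was present in 99.2% to 100% of the members. Lum was also in 71.0% to 88.9% of the Coch, Dkk2 and Crabp1 fibroblasts and in 91.1% to 95.6% of the Plac8 and Cxcl13 fibroblasts. At least 1 UMI of Cyp2f2 was present in 72.9% and 81.3% of the Sham members, in 46.4% and 24.9% of the IMQ members and in 65.3% and 35.2% of the IMQ+SHP099 members. After each cell was thinned to 3000 UMIs these shares were 68.5% and 75.0%, 31.2% and 16.7%, and 52.1% and 29.5%, over the 279 and 1651, 618 and 1416, and 499 and 859 cells deep enough. In the Coch, Dkk2 and Crabp1 fibroblasts the unthinned Cyp2f2 shares were 37.4% and 40.1% in Sham and 41.3% and 36.2% in IMQ. With IMQ+SHP099 they were 54.5% and 34.2%. In IMQ replicate 2 the share in these fibroblasts was above the 24.9% of the members. The Plac8 and Cxcl13 fibroblasts held Cyp2f2 in 13.7% and 18.5%, 37.9% and 20.3%, and 36.9% and 17.7% of cells in the same order of groups. Cells with Ptprc, the CD45 antigen of blood cells, that lay outside the gate gave the background. It was 0% to 3.18% for Cyp2f2 and 1.97% to 11.9% for Lum, at median depths of 1724 to 6354.5 UMIs.

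At the threshold, 236 members held exactly 2 UMIs of Cyp2f2 and Lum and 347 gated cells that met the other limits held 1 UMI. In cells with 2 UMIs Cilp was 57.1 and 27.2 unscaled CPM in Sham, 844 and 2847 with IMQ and 1318 and 2986 with IMQ+SHP099. With 1 UMI it was 15.9 and 50.2 in Sham, 1258 and 1246 with IMQ and 2010 and 1739 with IMQ+SHP099. Next to the threshold Cilp was thus lower in the Sham libraries than in the treated ones, in 13 to 82 Sham cells each. In members with 10 or more UMIs that order did not hold, at 2164 and 1369 in Sham, 1129 and 2730 with IMQ and 572 and 1634 with IMQ+SHP099.

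Members with and without Cyp2f2 transcripts carried different levels of matrix and inflammatory genes. This division uses a gene of the rule and moves with depth, so it is given as a description with no test. In IMQ, Cilp was 508 and 843 unscaled CPM in members with Cyp2f2 and 2038 and 3831 in members without it. Col8a1, a short-chain network collagen, was 19.9 and 48.2 in those with Cyp2f2 and 285 and 699 in those without. Members without Cyp2f2 were higher for both genes in both IMQ and both IMQ+SHP099 libraries.

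Saa3, which encodes an acute-phase serum amyloid A protein, ran the other way. In IMQ it was 33437 and 19813 unscaled CPM in members with Cyp2f2 and 10684 and 3780 in members without it. Lcn2, which encodes the siderophore-binding protein lipocalin 2, was 4187 and 2146 against 1466 and 445. In Sham, Cilp was higher in the members with Cyp2f2, at 2238 and 1428 against 948 and 756.

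Against the other gated fibroblasts the members differed in several secreted factors, again as a description, since the rule divided the same cells. Among genes outside the rule, Thbs4, a thrombospondin of tendon and injured tissue, had the largest minimum ratio of member level to level in the other gated cells, 2.62 to 10.8 over the 6 libraries. Oxtr, the oxytocin receptor, followed at 2.53 to 9.03 and Il19, an IL-10 family cytokine, was at 1.87 to 6.09. The ratio was 1.65 to 9.86 for Grem1, an antagonist of BMP ligands, and 1.502 to 2.10 for Timp1, an inhibitor of matrix metalloproteinases.

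Genes on the low side included Inmt, a methyltransferase, Sfrp4, a secreted Wnt modulator, Vegfd, a lymphatic growth factor, and C3, the central complement component. Their ratios were 0.140 to 0.370 for Inmt, 0.0852 to 0.422 for Sfrp4, 0.111 to 0.443 for Vegfd and 0.199 to 0.583 for C3.

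To ask whether the population changed in size, its share of the gated fibroblasts was compared. The members made up 32.4% of the gate in Sham replicate 1 (95% Clopper-Pearson interval 29.6% to 35.2%) and 50.7% in replicate 2 (49.0% to 52.4%). In IMQ the shares were 19.2% (17.9% to 20.6%) and 25.4% (24.3% to 26.5%), and in IMQ+SHP099 29.3% (27.3% to 31.5%) and 22.4% (21.1% to 23.6%). These intervals cover counting error only.

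The mean share was 41.5% ± 12.99 (SD, n = 2) in Sham and 22.3% ± 4.32 in IMQ, and the libraries of the 2 groups did not overlap. The difference of -19.2 percentage points had p = 0.333 in an exact two-sided permutation test, the smallest p that 2 against 2 libraries allow, and was -10.04 without Sham replicate 2. IMQ+SHP099 differed from IMQ by 3.54 percentage points, with overlapping libraries (exact permutation p = 0.667). This second difference was 0.0549 and 7.02 without IMQ+SHP099 replicates 1 and 2, and 0.479 and 6.59 without IMQ replicates 1 and 2. Without the limit on Plac8 and Cxcl13 the Sham shares of 70.5% and 61.0% overlapped the IMQ shares of 50.95% and 64.1%. As a share of all kept cells the members were 4.09% and 21.4% in Sham and 8.42% and 14.5% in IMQ, which also overlapped.

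**Figure D2:**
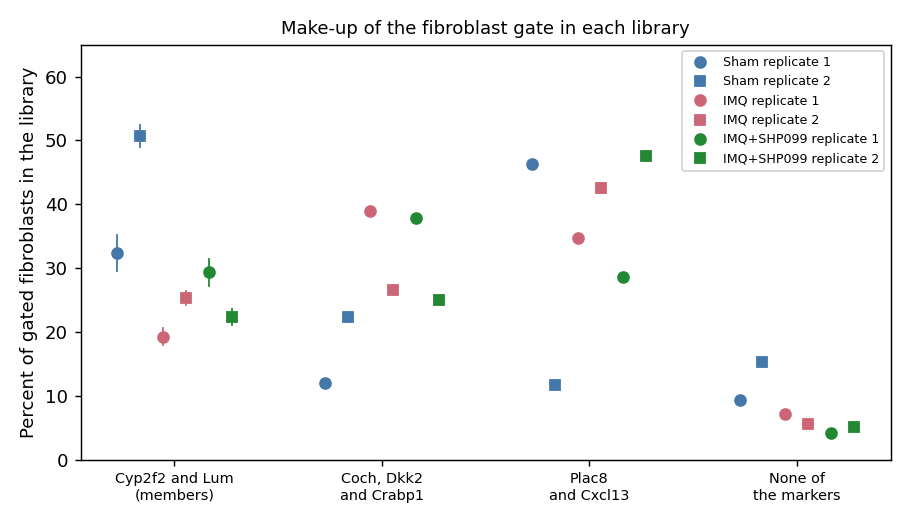
Percent of gated fibroblasts in each library (y axis) that were members, Coch, Dkk2 and Crabp1 fibroblasts, Plac8 and Cxcl13 fibroblasts or none of these, with 1 point for each library and 95% Clopper-Pearson bars for the members. The Sham members, at 32.4% and 50.7%, lie above the IMQ members, at 19.2% and 25.4%.

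To assess what imiquimod changed within the population, UMIs were summed over the members of each library and compared with the edgeR quasi-likelihood test. A gene was called at a Benjamini-Hochberg adjusted p under 0.05. In IMQ against Sham 235 of 12301 tested genes were called, or 1.91%, of which 101 (0.821%) were higher and 134 (1.09%) lower. The leading rises were acute-phase, chemokine and matrix genes, and the leading falls were Igfbp2, Oxtr and a block of keratinocyte genes. Values in this comparison are scaled CPM, and changes are on the log2 scale with their standard error.

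Acute-phase genes led the named rises, and the changes of Lcn2 and Saa3 were the largest among them. Saa3 (chromosome 7, 46711998 to 46715700) was 9.16 and 14.8 CPM in Sham, 22924 and 8471 with IMQ and 38626 and 12586 with IMQ+SHP099, so that the Sham libraries lay far below every treated library. Its change in IMQ against Sham was 10.30 ± 1.03 (adjusted p = 0.00815). Lcn2 was 2.04 and 1.10 CPM in Sham and 2930 and 942 in IMQ, a change of 10.54 ± 0.95 (adjusted p = 0.00537). Saa1, which encodes a serum amyloid A protein and also lies on chromosome 7, was 2.55 and 0.399 CPM in Sham and 116 and 42.5 in IMQ, a change of 6.78 ± 0.83 (adjusted p = 0.0126). Sham and IMQ libraries did not overlap in any of the 3 genes, because the rule for named genes asked for it.

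Since Saa3 and Saa1 rose together, the 250 bases before each start site are shown, 5′ to 3′ on the minus strand, from RefSeq on GRCm38.p6. Capitals mark TTGCNNAA or its reverse complement, letters of the kind that C/EBP factors of the acute-phase response bind. The window of Saa3 is chr7:46715677-46715926 and that of Saa1 is chr7:46742981-46743230.
Saa3: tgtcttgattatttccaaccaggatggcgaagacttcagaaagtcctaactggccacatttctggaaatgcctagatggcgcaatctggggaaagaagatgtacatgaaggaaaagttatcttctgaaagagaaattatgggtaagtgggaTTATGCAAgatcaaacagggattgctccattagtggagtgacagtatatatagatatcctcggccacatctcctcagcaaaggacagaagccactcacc
Saa1: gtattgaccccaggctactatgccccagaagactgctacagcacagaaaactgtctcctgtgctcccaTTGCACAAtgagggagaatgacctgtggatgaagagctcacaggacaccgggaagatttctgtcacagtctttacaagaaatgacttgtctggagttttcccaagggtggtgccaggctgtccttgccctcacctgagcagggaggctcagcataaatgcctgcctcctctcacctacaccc
The match begins 99 bases before the start of Saa3 and 182 bases before that of Saa1. Of the 10 genes named for rising, 6 had a promoter in RefSeq and 4 of these held the letters on either strand (Lcn2, Saa3, S100a9 and Saa1), against 9.56% of 32851 mouse promoters. TGANTCA, as in AP-1 sites, was in 0 of these 6 and in 6.75% of all promoters, and the kappa-B motif of NF-kB was in 0 of these 6 and in 4.11% of all. Of the 10 genes named for falling, 7 had a promoter. The C/EBP letters were in 2 of these 7 (Krt77 and Krt10), the AP-1 letters in 2 (Fam25c and Igfbp2) and the kappa-B letters in 0. For Igfbp2 the match lay in the window chr1:72825137-72825386 and not in chr1:72824230-72824479. A gene was counted if any of its promoters matched, while the percentages are per promoter, so the 2 measures are not alike. A match describes the sequence and not binding.

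Chemokines and a cytokine of barrier tissue rose as well. Cxcl5, which attracts neutrophils through CXCR2, was 0.509 and 0.0999 CPM in Sham and 108 and 103 in IMQ. Sham held 3 UMIs of it in all, and the ratio of summed counts was 676 with a 95% counting interval of 231 to 3281 (adjusted p = 0.000453, edgeR). That interval covers counting error only. Cxcl14, a chemokine of resting skin, went from 63.6 and 33.2 CPM to 273 and 451, a change of 2.93 ± 0.41. Il33, an alarmin cytokine held in the nucleus, went from 10.7 and 12.03 CPM to 107 and 84.3, a change of 3.05 ± 0.28 (adjusted p = 0.00537). Serpina3m, a serine protease inhibitor, and Cbln1, a secreted C1q-related protein, changed by 5.11 ± 0.70 and 7.58 ± 1.22.

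S100a9 and S100a8, the subunits of the neutrophil protein calprotectin, also stood among the leading rises, at 8.67 ± 1.00 and 6.27 ± 1.07. Their levels in the IMQ members were 68.1 and 103 CPM for S100a9 and 62.6 and 99.0 CPM for S100a8. In all kept cells of the IMQ libraries S100a9 was 8615 and 4882 unscaled CPM. At least 1 UMI of either gene was in 70.3% and 63.1% of the IMQ members, and in 68.5% and 65.3% of the other gated cells. In IMQ replicate 2, 5 member cells held 46.6% of the 3235 UMIs of the 2 genes, and in IMQ replicate 1 the top 5 held 4.51% of 843. The 13 myeloid markers, which include S100a8 and S100a9, together were 72.4 to 477 unscaled CPM in the members. This was 0.965% to 2.93% of their level in all kept cells, and none was at 0 in all 6 libraries. In all kept cells of IMQ+SHP099 replicate 1, S100a9 was 14918 unscaled CPM and the myeloid marker Lyz2 was 17.3. Lyz2 was 691 and 545 in all kept cells of IMQ. The 10 keratinocyte markers summed to 31529 unscaled CPM in all kept cells of IMQ+SHP099 replicate 1, and to 18163 and 9914 in those of IMQ. The parts of RNA from myeloid cells and from keratinocytes in these 2 rises were not tested.

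Matrix genes changed in both directions. Tnc, which encodes tenascin C of wounded and inflamed matrix, was 31.1 and 20.3 CPM in Sham, 2171 and 1385 with IMQ and 2434 and 1423 with IMQ+SHP099, a change of 6.14 ± 0.53 in IMQ (adjusted p = 0.00515). Prg4, the lubricating proteoglycan lubricin, was 3.05 and 3.55 CPM in Sham and 466 and 541 in IMQ, a change of 7.20 ± 0.41 (adjusted p = 0.000498). Col8a1 went from 10.7 and 14.98 CPM to 142 and 487, a change of 4.57 ± 0.83, with the IMQ libraries far apart.

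On the other side, Timp3, a matrix-bound inhibitor of metalloproteinases, fell from 1856 and 1113 CPM to 272 and 294, a change of -2.39 ± 0.36 (adjusted p = 0.0206). Fn1, which encodes fibronectin, went from 777 and 1355 CPM to 296 and 210.4, and Col16a1, a fibril-associated collagen, from 718 and 557 to 164 and 174. Fbln5, which organises elastic fibres, went from 372 and 239 CPM to 106 and 91.9, a change of -1.62 ± 0.30. Podn, a small leucine-rich proteoglycan, rose by 1.66 ± 0.33 (adjusted p = 0.0493), a call that was lost in 12 of 17 alternatives. Mmp3, which encodes stromelysin 1, rose by 2.79 ± 0.49.

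Fibrillar collagen I can be given as a description only, since the gate used it. Col1a1 was 15825 and 11920 CPM in Sham, 3372 and 4189 with IMQ and 2680 and 4685 with IMQ+SHP099. For Col1a2 the same groups held 21677 and 17752, 4580 and 6110, and 4238 and 5885 CPM. Dcn, which encodes decorin and was part of the same gate sum, was 18976 and 17199 in Sham and 17481 and 12718 in IMQ.

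Outside the keratinocyte block the leading falls included a growth factor binding protein and a receptor. Igfbp2, which binds insulin-like growth factors, was 538 and 209 CPM in Sham, 0.620 and 3.13 with IMQ and 5.93 and 4.48 with IMQ+SHP099, a change of -7.45 ± 0.75 in IMQ (adjusted p = 0.00815). Oxtr was 72.8 and 125 CPM in Sham and 1.71 and 2.001 in IMQ, a change of -5.72 ± 0.64 (adjusted p = 0.0105). Gpm6a, a membrane glycoprotein, changed by -4.27 ± 0.53 and Gm12248 by -6.10 ± 0.84. Ccnd1, which encodes cyclin D1, went from 61.1 and 89.3 CPM to 14.4 and 20.3, a change of -2.12 ± 0.29.

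Keratinocyte genes made up the other part of the leading falls. Krt77 was 1140 and 101 CPM in Sham, with 1 UMI in the IMQ members, a summed ratio of 4909 with a counting interval of 881 to 193932. This interval covers counting error only, and not the spread between the Sham libraries or between cells. Krt10 was 2814 and 251 CPM in Sham and 35.7 and 27.3 in IMQ, and Dsg1a, Dsc3, Fam25c and Krt15 also had their highest level in Sham replicate 1. Of the 10 keratinocyte markers 2 were called lower and 0 higher, with a median log2 change of -5.62, beside 1.09% of all tested genes called lower. In Sham replicate 1 the members held these markers at 26.5% of the level in all kept cells, in Sham replicate 2 at 6.56% and in the other 4 libraries at 1.09% to 1.46%.

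Of the UMIs of Krt77, Krt10, Krt15, Dsg1a, Dsc3 and Fam25c, 5 member cells held 63.3% in Sham replicate 1 and 5 held 58.2% in Sham replicate 2. When members with 3 or more UMIs of genes of other cell types (Krt1 and Krt10 itself among them) were left out, Krt77 and Krt15 stayed called at -8.87 and -5.49 (adjusted p = 0.00293 and 0.0118, edgeR). Dsg1a, Fam25c, Dsc3 and Krt10 were no longer called, at -3.55, -2.97, -2.66 and -1.56 (adjusted p = 0.0630, 0.126, 0.172 and 0.0744). Igfbp2 changed by -7.72 in the same fit (adjusted p = 0.00274). Without Sham replicate 1, Krt77, Dsg1a and Krt10 stayed called, and Fam25c, Dsc3 and Krt15 were not called (adjusted p = 0.0565, 0.0768 and 0.0505, edgeR). Igfbp2 then changed by -6.58 (adjusted p = 0.0184). The part of keratinocyte RNA in the falls of the other genes was not tested.

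**Figure D3:**
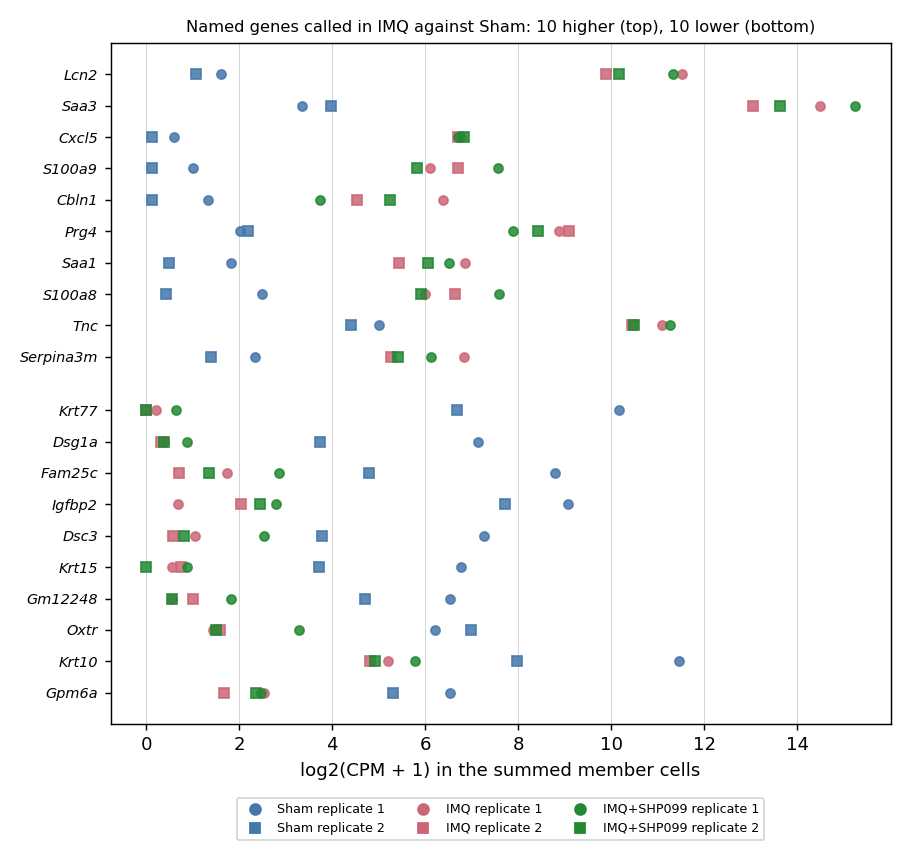
Level of the 20 named genes of IMQ against Sham in the summed members, as log2(CPM + 1) on the x axis, with 1 line for each gene and 1 point for each library. Sham points lie apart from the IMQ points for every gene because the rule for named genes asked for it, and for Saa3 the IMQ+SHP099 points lie on the IMQ side, at 38626 and 12586 CPM.

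Enzymes of foreign compound, steroid and retinoid metabolism were divided. Of 29 tested members of that list 4 rose, 2 fell and 23 were not called. The median log2 change was 0.04 beside 0.00308 over all tested genes. Over all tested genes 0.821% were called higher and 1.09% lower. Cyp7b1, a hydroxylase of oxysterols, rose from 15.3 and 15.8 CPM to 278 and 121, a change of 3.67 ± 0.45 (adjusted p = 0.0126). Fmo2, a flavin monooxygenase, rose by 4.75 ± 0.91. Aldh3a1, an aldehyde dehydrogenase, fell from 215 and 157 CPM to 15.2 and 5.00, a change of -4.25 ± 0.56 (adjusted p = 0.0147), and Adh7, which oxidises retinol, went from 183 and 185 to 52.9 and 38.3. Cyp2f2 itself, a rule gene given as a description, was 1094 and 1017 CPM in Sham, 214 and 115 with IMQ and 428 and 207 with IMQ+SHP099.

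Among the other lists, the IL-17 and NF-kB response had 5 of 28 tested genes higher (Lcn2, Saa1, Saa3, Steap4 and Ptgs2) and 0 lower, with a median of 0.33. Beside these and the next counts, 0.821% of all tested genes were called higher and 1.09% lower. A single called gene does not show a change of its list. The complement list had 3 of 15 higher and 0 lower, with a median of 0.65. Its called genes included the terminal component C7 and C3, at 370.1 and 369.9 CPM in Sham and 1376 and 1330 in IMQ. The chemokine list had 3 of 13 higher and 0 lower, and the list of matrix proteases and inhibitors 3 of 19 higher and 1 lower, with a median of 1.02. Adamts15, a protease that cleaves versican, rose by 2.35 ± 0.46. The cartilage and tendon list had 2 of 14 higher, Tnc and Prg4. The ERK feedback and SHP2 list had 1 of 23 lower, Ccnd1, and 0 higher, with a median of 0.60.

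In the TGF-beta and BMP list 2 of 25 genes rose, beside 0.821% of all tested genes. The 2 genes of the list were Tgfb1, at 52.4 and 43.5 CPM in Sham and 115 and 109 in IMQ, and Ctgf. Ctgf, the connective tissue growth factor, was at 65.7 and 29.9 in Sham and 601 and 1100 in IMQ. The Wnt list had 2 of 21 higher and 4 lower. Wnt5a, a ligand of non-canonical signalling, went from 94.7 and 96.5 CPM to 31.9 and 23.1, a change of -1.80 ± 0.25, and Apcdd1, a Wnt inhibitor, changed by -3.23 ± 0.56. Dkk3 rose by 1.79 ± 0.35. Sfrp2, a secreted Wnt modulator, went from 4.07 and 7.54 CPM to 25.9 and 19.1, a change of 1.80 ± 0.33 that was -0.76 without the limit on Plac8 and Cxcl13.

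Several lists held few calls, where 1.91% of all tested genes were called in either direction. The cell cycle list had 2 of 19 genes lower, Mki67 and Stmn1, and all 19 had a log2 change below 0, with a median of -1.67. Mki67, a marker of dividing cells, went from 19.3 and 48.5 CPM to 3.72 and 4.07. The calls of Mki67 and Stmn1 were lost in 9 of 16 and 11 of 17 alternatives, among them that without Sham replicate 2 (adjusted p = 0.0592 and 0.101, edgeR). Over the genes of the list the members held 340 and 1050 unscaled CPM in Sham and 249 and 261 in IMQ. Of 22 interferon-stimulated genes 1 was called, Gbp2, at 67.7 and 87.7 CPM in Sham and 26.8 and 29.5 in IMQ, and the median was -0.59. Antigen presentation class I had 0 of 15 called with a median of -0.56. B2m, the light chain of class I molecules, was 2536 and 1353 CPM in Sham and 1498 and 1162 in IMQ, and H2-D1 was 2188 and 828 against 1315 and 959.9. The H2-D1 difference of -0.41 ± 0.51 became 0.47 without Sham replicate 1.

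The myofibroblast list had Tnc higher and Fn1 lower among 14 genes, beside 1.91% of all tested genes called in either direction. Tnc and Apcdd1 each stand in more than 1 list. Elastic fibre genes had 1 of 17 lower (Fbln5). The list of fibrillar and network collagens, without rule genes, had 1 higher (Col8a1) and 1 lower (Col16a1) of 14. Cytokines and growth factors had 2 of 25 higher (Il33 and Tnfsf11), proteoglycans 1 of 9 higher (Podn) and the upper dermal list 1 of 12 lower (Apcdd1). The adventitial and universal list had 0 of 14 called with a median of -1.06. Its most abundant genes were Gsn, at 7149 and 4970 CPM in Sham and 4268 and 4744 in IMQ, and Ly6a, at 2965 and 1403 against 1081 and 1079. The collagen processing, glycolysis, adipogenic and immediate early lists had 0 called, with medians of 0.08, 0.20, 0.37 and 0.37. Fos, an immediate early gene, was 912 and 2022 CPM in Sham and 3036 and 3764 in IMQ, a difference of 1.21 ± 0.49 (adjusted p = 0.301).

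**Figure D4:**
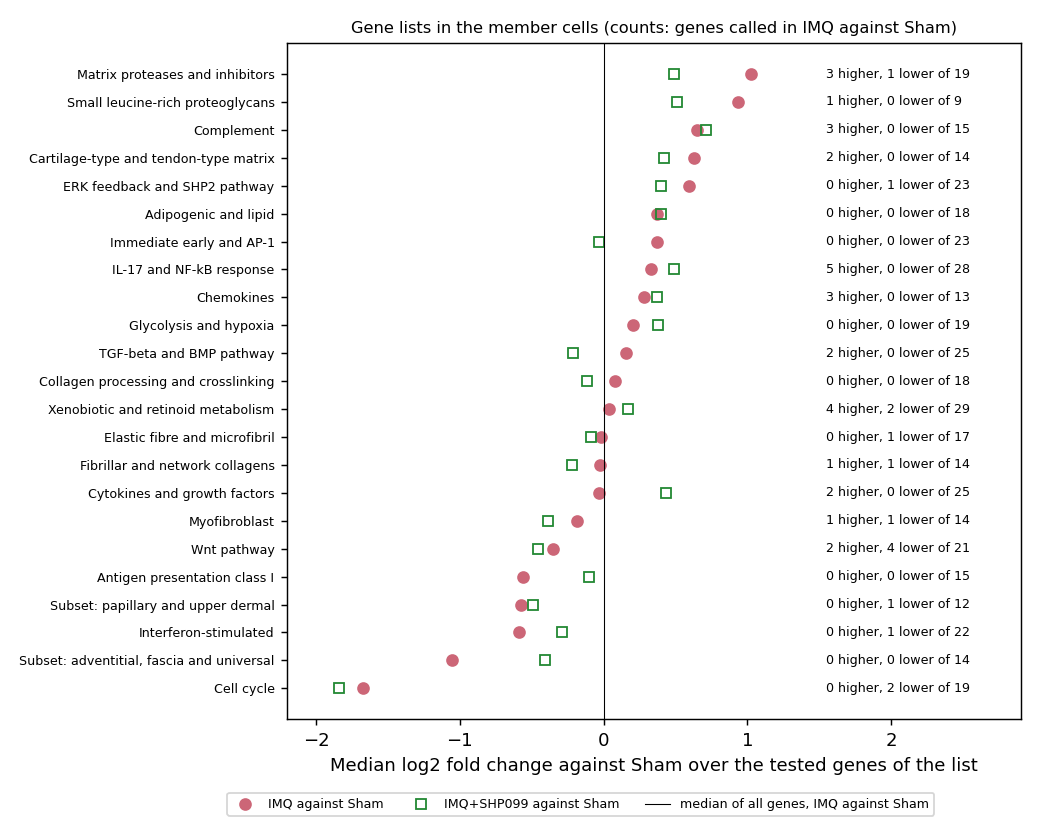
Median log2 fold change against Sham over the tested genes of each list of function or subset genes, cell type markers left out, in the members (x axis), for IMQ as filled circles and IMQ+SHP099 as open squares, with the genes called in IMQ against Sham counted at the right. Of these lists the matrix protease list lies highest for IMQ, at 1.02, and the cell cycle list lowest, at -1.67, and the vertical line is the median of all tested genes, 0.00308.

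The count of 235 depended on single libraries and on the fit. With the replicate number as a block it was 777, and these held all 235. It was 379 without Sham replicate 2, 73 and 103 without IMQ replicates 1 and 2, and 110 and 108 without IMQ+SHP099 replicates 1 and 2. Lcn2, Saa3, Saa1, Cxcl5, Prg4, Tnc, Igfbp2, Oxtr, Gpm6a, Cyp7b1 and Aldh3a1 were called in all 17 alternatives. Sfrp2 and Tgfb1 kept their direction and call in 7 and 8 of the 17. Adamts15, Dkk3, Gbp2, Dsc3 and Fam25c kept them in 9, and C3, Mmp3, Col8a1 and Krt10 in 10. Timp3, Fn1, Col16a1 and Fbln5 kept them in 11. For each of these 4 genes the losses included every fit without 1 IMQ or 1 IMQ+SHP099 library.

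To ask what SHP2 inhibition added, IMQ+SHP099 was compared with IMQ in the same cells. In the edgeR test 0 of 12301 genes were called (0%), with 166 at an unadjusted p under 0.05. DESeq2 called 1 gene, and the edgeR test without a filter on low counts called 84. Ptpn11, which encodes the drug's target, was 49.2 and 57.0 CPM in IMQ and 54.8 and 51.9 in IMQ+SHP099, against 40.7 and 52.7 in Sham. Tlr7 had 4 UMIs in the members of all 6 libraries and was not tested.

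The genes that rose furthest in IMQ gave no call in this comparison. Saa3 differed by 0.71 ± 0.69 on the log2 scale between IMQ+SHP099 and IMQ, Lcn2 by -0.06 ± 0.59, Tnc by 0.12 ± 0.42, Cxcl5 by 0.04 ± 0.26 and Prg4 by -0.80 ± 0.30. That none was called does not show that the levels were equal.

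The lowest p-values are given as values only. Mmp9, a gelatinase, was 14.6 and 6.13 CPM in IMQ and had 0 UMIs in both IMQ+SHP099 libraries, and was at least 30.3-fold higher in IMQ against a floor of 3 counts over the group. Sfrp5, a Wnt inhibitor, was 6.82 and 2.94 CPM in IMQ and also had 0 UMIs, at least 14.3-fold higher in IMQ. Dio3, which inactivates thyroid hormone, differed by -3.58 ± 0.66 and Enpp1 by -1.37 ± 0.39. Higher values in IMQ+SHP099 were seen for Ccl19 (ENSMUSG00000071005), a chemokine that guides T cells and dendritic cells, at 53.7 and 31.3 CPM in IMQ and 123 and 106 in IMQ+SHP099, and for CR974586.5, Gm38025, Cd209f and Hist1h2ae. Each of these genes had an adjusted p of 1 in the edgeR test.

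Among the lists, antigen presentation class I had a log2 difference above 0 for 15 of 15 genes, with 0 called and a median of 0.57 beside 0.01 over all tested genes. B2m was 1498 and 1162 CPM in IMQ and 2334 and 1603 in IMQ+SHP099. Interferon-stimulated genes lay above 0 in 20 of 22 cases, with 0 called and a median of 0.44. The ERK feedback and SHP2 list, which holds Ptpn11, lay above 0 in 9 of 23 cases with 0 called and a median of -0.04.

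IMQ+SHP099 against Sham called 92 genes (0.748%), 47 higher (0.382%) and 45 lower (0.366%). Both treated groups are set against the same Sham libraries, so the lists are not independent. Of the 10 genes named for rising in IMQ, 9 were also called here, with Saa3 at 11.005 ± 1.06, Lcn2 at 10.48 ± 0.94, Prg4 at 6.4 ± 0.40 and Tnc at 6.26 ± 0.54. Cbln1 was not, at 6.52 ± 1.24 (adjusted p = 0.0664, edgeR). Ifitm1, an interferon-inducible membrane protein, was 26.0 and 20.8 CPM in Sham and 849 and 710.0 in IMQ+SHP099, a change of 5.08 ± 0.41. Named falls were Igfbp2 at -6.18 ± 0.71, Oxtr at -4.36 ± 0.61, Timp3 at -2.28 ± 0.36 and Ccnd1 at -2.39 ± 0.30, with Krt77, Gm12248, Gpm6a, Ppp1r14a, Cldn10 and Trabd2b. Krt77 stands beside the keratinocyte markers given above, here as in IMQ against Sham.

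Some matrix genes called in IMQ did not pass here. Col8a1 was 30.5 and 132 CPM in IMQ+SHP099, a difference from Sham of 2.62 ± 0.77 (adjusted p = 0.174), and Ctgf was 118 and 513 CPM, at 2.76 ± 0.72 (adjusted p = 0.134). Their direct differences from IMQ, -1.95 ± 0.72 and -1.43 ± 0.68, were not called either. The count of 92 was 543 with a replicate block, all 92 among them, and it was 8 and 17 without IMQ+SHP099 replicates 2 and 1, 35 without Sham replicate 1 and 195 without Sham replicate 2.

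To ask whether imiquimod changed the members and the other gated fibroblasts of the same libraries unequally, the interaction of group and population was tested. The other gated cells were a mixture whose make-up differed between libraries. Coch, Dkk2 and Crabp1 cells were 12.1% and 22.4% of the gate in Sham and 39.0% and 26.6% in IMQ. Plac8 and Cxcl13 cells were 46.3% and 11.7% in Sham and 34.7% and 42.5% in IMQ. The part of this make-up in the differences below was not tested. For IMQ against Sham 74 of 14144 genes were called (0.523%), 45 with a more positive change in the members and 29 with a more negative one. Ptgis, which encodes prostacyclin synthase, was 4.16 and 4.58 CPM in the Sham members and 23.1 and 75.3 in the IMQ members, against 36.5 and 15.8 and then 18.6 and 31.4 in the other gated cells. The 2 changes differed by 2.96 ± 0.44 (adjusted p = 0.0429). Against the Coch, Dkk2 and Crabp1 fibroblasts alone the difference was 2.02 and not called (adjusted p = 0.248, edgeR).

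Sfrp2 was 4.16 and 7.78 CPM in the Sham members and 27.0 and 19.96 in the IMQ members, and 80.3 and 99.7 and then 25.5 and 42.0 in the other cells, where its own change was not called. Mdk, which encodes the growth factor midkine, Sulf1, a heparan sulfatase, Adamts15, and Ebf2, a transcription factor, also had a more positive change in the members than in the other cells together. The difference of Mdk was 0.42 and not called against the Plac8 and Cxcl13 fibroblasts alone (adjusted p = 0.591, edgeR), and that of Ebf2 was 0.86 and not called against the Coch, Dkk2 and Crabp1 fibroblasts (adjusted p = 0.394). In the members' own fit the changes of Mdk, Sulf1 and Ebf2 were not called (adjusted p = 0.295, 0.124 and 0.470).

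In the negative direction, Serpina3n, a protease inhibitor of the acute phase, was 1081 and 405 CPM in the Sham members and 159.5 and 82.3 in the other cells, and 3606 and 1941 against 2551 and 1494 in IMQ, a difference of -2.09 ± 0.23 (adjusted p = 0.0233). The populations lay further apart in Sham than in IMQ. Sectm1a showed the same order, at 55.6 and 62.2 against 9.14 and 8.49 in Sham and 109 and 89.3 against 71.9 and 54.7 in IMQ. Aldh3a1 changed more negatively in the members, by -2.91 ± 0.42, from 219 and 162 CPM in Sham against 34.0 and 57.8 in the other cells. Ppl and Mmp27 differed by -2.15 ± 0.33 and -2.52 ± 0.39. Against the Coch, Dkk2 and Crabp1 fibroblasts alone these differences were -0.64 and -0.91 and not called (adjusted p = 0.338 and 0.193, edgeR). The members' own changes of Serpina3n, Sectm1a and Mmp27 were not called (adjusted p = 0.160, 0.339 and 0.0631).

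**Figure D5:**
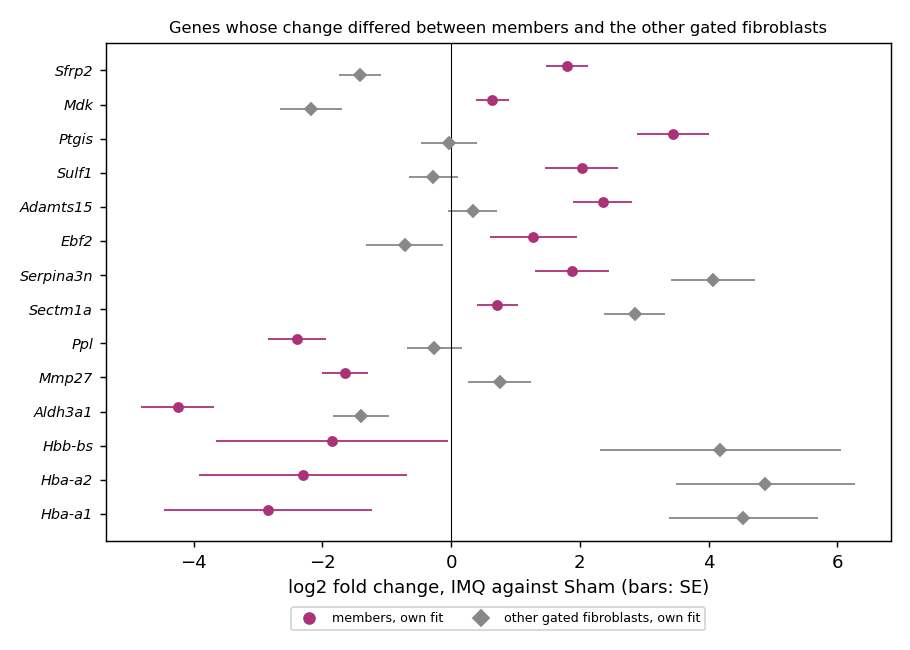
Log2 fold change of IMQ against Sham (x axis, bars are SE) for the 14 genes named from the interaction test, from the separate fits of the members (circles) and of the other gated fibroblasts (diamonds). Sfrp2 lies at 1.80 in the members and at -1.42 in the others, and Serpina3n at 1.88 and 4.07.

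Haemoglobin genes were also called in this test, and they were the 4 genes (0.0283% of 14144) called for IMQ+SHP099 against IMQ. Hbb-bs was 0 and 318 CPM in the members of IMQ+SHP099 replicates 1 and 2, and 337 and 179 CPM in the other gated cells of IMQ. In IMQ+SHP099 replicate 2, 1 member cell held 93.7% of the 3434 haemoglobin UMIs of the members, and without that library 0 genes were called (236 at an unadjusted p under 0.05, edgeR). In the other gated cells of IMQ replicates 1 and 2, 5 cells held 92.3% and 98.5% of them.

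Saa3, Tnc and Prg4 were also called in fits of single other populations. In the fit of all other gated fibroblasts together none of the 3 was called, at 10.74 ± 1.80, 5.68 ± 0.76 and 5.96 ± 1.05 (adjusted p = 0.0803, 0.0629 and 0.0877, edgeR). That fit called 16 of 14117 genes. Among them were all other genes named for rising in IMQ, each at adjusted p = 0.0431 (edgeR). These were Lcn2, Saa1, Cxcl5, S100a9, S100a8, Cbln1 and Serpina3m. Of the genes named for falling, Oxtr (-4.44 ± 0.49) and Krt77 were called there and the others were not. Calls numbered 513 of 12464 genes in the Coch, Dkk2 and Crabp1 cells and 42 of 12621 in the Plac8 and Cxcl13 cells. The Coch, Dkk2 and Crabp1 population gave 13.11 ± 1.17 for Saa3 and 4.72 ± 0.77 for Tnc, both called. The Plac8 and Cxcl13 population gave 8.42 ± 0.91 for Tnc, which was called, and 10.52 ± 1.66 for Saa3, which was not (adjusted p = 0.0579, edgeR). The level of Tnc in IMQ was 2174 and 1421 unscaled CPM in the members, 2092 and 1312 in the Coch, Dkk2 and Crabp1 cells and 474 and 191 in the Plac8 and Cxcl13 cells. For Prg4 these levels were 467 and 555, 271 and 154 and 1407 and 854. Saa3, Tnc and Prg4 were not among the 74 genes of the interaction test, which does not show that their changes were equal.

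The count of 74 also depended on single libraries. It was 2 without IMQ replicate 1, 2 without IMQ replicate 2, 31 and 6 without IMQ+SHP099 replicates 1 and 2, and 647 and 510 without Sham replicates 1 and 2.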

How the data were processed

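Single cells of dorsal skin were profiled with 10x 3′ chemistry. Per the file headers the deposited matrices hold raw UMI counts per gene and barcode from Cell Ranger 3.1.0, and the submitters' processing notes name GRCm38 (mm10). Annotation coordinates are those of GENCODE M21. Nothing was normalised by the authors in these files. Here barcodes with fewer than 100000 UMIs, fewer than 6500 genes and under 10% mitochondrial UMIs were kept, and the member rule was applied to UMIs per 10000. No doublet caller was run.

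UMIs were summed over the members of each library and tested with edgeR 4.0.16 (R 4.3.3; filterByExpr, TMM, quasi-likelihood F test, Benjamini-Hochberg), with all 6 libraries in 1 fit and no replicate block. The 16 rule genes, of which 15 passed the filter, stayed in the fit and were left out of all counts. The interaction test used 12 sums with library as a block. CPM are TMM-scaled, and unscaled CPM are UMIs over the sum of all UMIs of the same cells. DESeq2 1.42.0 was an alternative. The code was tested on simulated data. Cells of a library are not replicates, so no test was run over cells.

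The members, lists and tests were chosen with earlier results of these data known. Of 537 list symbols, 3 (Ccl19, Mx2 and Aldoa) were not matched to a single gene and left out of the lists. Named genes were the 10 in each direction with the largest log2 change among called genes with at least 20 CPM on average and libraries of the 2 groups that did not overlap (or the 5 of smallest p in each direction), up to 2 called genes per direction and list with at least 5 CPM, and up to 8 per direction of the interaction. Where a list had no called gene its 2 most abundant were named. Some genes that this rule names are not reported here. Other called list members are named without values, and were picked after their values were seen. With a group total of 1 to 3 UMIs a counting ratio with a 95% exact interval is given, and 0 was set to a floor of 3 counts. These intervals and floors use UMIs pooled over a group and do not cover the spread between libraries or cells.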

Additional observations from a re-analysis of the deposited data

Results flagged for a closer look

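The genes below are those named from the interaction test, in which the change between groups differed between the members and the other gated fibroblasts (edgeR, adjusted p under 0.05). For IMQ against Sham, the log2 change was more positive in the members by 3.27 for Sfrp2, 2.96 for Mdk, 2.96 for Ptgis, 2.28 for Sulf1, 2.13 for Adamts15 and 2.09 for Ebf2. It was more negative in the members, at -2.09 for Serpina3n, -2.12 for Sectm1a, -2.15 for Ppl, -2.52 for Mmp27 and -2.91 for Aldh3a1. The call was lost for Mdk against the Plac8 and Cxcl13 fibroblasts alone (0.42), and against the Coch, Dkk2 and Crabp1 fibroblasts alone for Ptgis (2.02), Ebf2 (0.86), Ppl (-0.64) and Mmp27 (-0.91). Of 11 alternatives, 8 kept the call of Sulf1, Adamts15, Serpina3n and Sectm1a, and 7 that of Aldh3a1, Ebf2 and Mmp27. Mdk, Ppl and Sfrp2 kept it in 6 and Ptgis in 5. For each of these genes the losses included both fits that left 1 IMQ library. Sfrp2 and Ptgis also lost it in cells thinned to 3000 UMIs.

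Haemoglobin genes differed at -5.97 for Hbb-bs, -6.93 for Hba-a2 and -7.17 for Hba-a1 in IMQ against Sham. For IMQ+SHP099 against IMQ the differences were 9.78 for Hba-a1, 9.76 for Hbb-bs and 9.14 for Hba-a2. A single member cell held 3218 of the 3434 haemoglobin UMIs of the members of IMQ+SHP099 replicate 2.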

How the results depend on the processing

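Genes called in IMQ against Sham (235) numbered 777 with a replicate block, 107 with only the 4 libraries compared, 713 with DESeq2, 1352 without a filter on low counts, 357 in cells thinned to 3000 UMIs and 98 without the limit on Plac8+Cxcl13, and 73 to 379 with 1 library left out. In IMQ+SHP099 against IMQ (0) DESeq2 called 1 and the test without a filter 84, and leaving out a library called 0 each time (0 to 0). In IMQ+SHP099 against Sham (92) the same order gave 543, 162, 497, 1094, 224 and 30, with 192 when cells with UMIs of other types were left out and 8 to 195 with 1 library left out. The first interaction (74) called 203 against the Coch+Dkk2+Crabp1 fibroblasts, 182 against the Plac8+Cxcl13 fibroblasts, 351 without a filter, 226 when thinned and 2 to 647 with 1 library left out. The second (4) called 7 without a filter and 0 to 6 with 1 library left out. The share difference of IMQ minus Sham ranged from -28.4 to -10.0 percentage points and that of IMQ+SHP099 minus IMQ from 0.0549 to 7.02 with 1 library left out, and the latter was -1.74 as a share of all kept cells. The causes were not tested.

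Same-numbered libraries are not said to be paired. Their deviations from the group means correlated at r = 0.223, 0.160 and 0.263 over 5862 genes for the 3 pairs of groups.

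The change of Apoe in IMQ against Sham (-0.08) was 0.36 when thinned, 0.15 without the Plac8+Cxcl13 limit, 0.0105 with the replicate block and -0.60 to 0.77 with 1 library left out. That of Gapdh (-0.02) was 0.0246 without a filter, 0.13 with the block and -0.50 to 0.73 with 1 library left out, and that of H2-D1 ranged from -0.94 to 0.47. Also reversed were Sfrp2 at -0.76 without the Plac8+Cxcl13 limit and Hist1h2ae (IMQ+SHP099 against IMQ) at -0.19 when thinned. Of the alternatives to called changes of named genes, 565 of 764 for IMQ against Sham and 288 of 340 for IMQ+SHP099 against Sham kept direction and call. Depth limits most the values of Sham replicate 1, which rests on 351 cells.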
